A study of Mus musculus with 2 samples.

Results

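A set of 10 genes of cyclic AMP (cAMP) signalling and of its feedback through the transcription factor CREB were followed in sorted mouse lung cells. They were chosen by name as a pathway downstream of the prostacyclin receptor: Gnas, Prkar1a, Prkaca, Pde4b, Pde4d, Pde3b, Crem, Sik1, Gem and Ppargc1a. They are 10 of the 27998 genes in the count tables, and each was found there. The study compared alveolar type 2 (AT2) cells, the surfactant-making epithelial cells of the lung, from male wild-type mice (WT) and male mice labelled IP-/- (IPKO), whose missing gene is Ptgir, the receptor for prostaglandin I2. In both, flow cytometry took lung cells that carried EpCAM and lacked the vascular, blood and other surface proteins CD31, CD34, CD45, CD24 and Sca-1. Each genotype gave 1 single-cell library, made with a 10x Genomics kit that tags transcript ends. The labels give neither the age, strain or number of mice, nor whether the Ptgir allele was deleted in the whole body.

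The prostacyclin receptor couples to the stimulatory G protein, which activates adenylyl cyclase and raises cAMP. cAMP releases the catalytic subunits of protein kinase A (PKA) from their regulatory subunits, and free PKA phosphorylates CREB, which binds cAMP response elements in promoters. Phosphodiesterases break cAMP down, and some CREB-induced genes, such as those of the repressor ICER (a product of Crem) and the kinase SIK1, act back on the pathway. In AT2 cells cAMP is known as a stimulus of surfactant secretion and of surfactant gene expression.

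The library labelled WT held 8924 barcodes and 127287281 UMIs (unique transcript tags), and the library labelled IPKO held 10014 and 137471506. After barcodes with few genes or a high mitochondrial share were left out, 6745 and 8072 cells remained, with medians of 18057 and 16665 UMIs. AT2 cells, defined by Sftpc at 10% or more of their UMIs, numbered 6422 and 7465. Keratin-high cells, those with the largest share of Krt7, Krt8, Krt18 and Krt19, numbered 337 and 404. Most overlapped with AT2 cells: 312 and 364 of them also met the AT2 definition, and Sftpc held 19.1% and 19.0% of their UMIs. A second list of genes, used to check this class and including S100a6 and Lgals3, summed to 2223 and 2157 CPM in them. In AT2 cells it summed to 276 and 300 CPM. Whether keratin-high cells are a separate state was not tested. Endothelial cells numbered 62 and 61, and their endothelial markers summed to 21211 and 19422 CPM (UMIs of these genes in each 1000000 UMIs of the class), against 81.1 and 93.6 in AT2 cells. CD31-positive cells had been gated out of the sort, so these are cells that passed the gate. In AT2 cells the targeted gene went against the labels: Ptgir had 0 UMIs in the library labelled WT and 314 (2.40 CPM) in the library labelled IPKO. A transcript-end tag can lie outside a deleted part, so tags in the library labelled IPKO do not check the deletion, but this does not bear on the 0 UMIs in 6422 cells labelled WT. Whether the labels of the libraries were exchanged was not tested, and an exchange would turn every direction between the libraries given here. Both are therefore named by their labels only. The libraries shared 79 barcodes, and 30 and 21 of the kept cells carried one.

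Promoter sequences of the members were read from RefSeq, build GRCm38.p6, as windows of 300 bases around each start site. Windows were found for 6 of the 10 members, 18 in all. The full cAMP response element TGACGTCA was present in 2 of them, both overlapping windows of Prkar1a, and in 1.79% of all 32851 promoter windows. Its core TGACG, or the reverse complement CGTCA, was present in 9 of the 18 windows and in 20.8% of all windows, and a full element contains both core spellings. Some windows of Gnas and of Prkar1a overlap and hold the same letters, so the 9 windows are not separate sites and the 2 shares cannot be compared as an excess. The Prkar1a window is shown because it holds the full element, and the Ppargc1a window because this gene differed most between libraries among the members with a window. Capitals mark TGACG and CGTCA. The Prkar1a window lies on the plus strand at chr11:109650699-109650998, and the Ppargc1a window on the minus strand at chr5:51567676-51567975.
Prkar1a: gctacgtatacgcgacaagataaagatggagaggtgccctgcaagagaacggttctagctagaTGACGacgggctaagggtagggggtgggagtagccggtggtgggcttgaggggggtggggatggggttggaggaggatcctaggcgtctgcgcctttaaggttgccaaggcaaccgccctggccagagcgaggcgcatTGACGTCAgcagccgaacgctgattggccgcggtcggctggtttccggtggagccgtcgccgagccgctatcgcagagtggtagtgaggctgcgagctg
Ppargc1a: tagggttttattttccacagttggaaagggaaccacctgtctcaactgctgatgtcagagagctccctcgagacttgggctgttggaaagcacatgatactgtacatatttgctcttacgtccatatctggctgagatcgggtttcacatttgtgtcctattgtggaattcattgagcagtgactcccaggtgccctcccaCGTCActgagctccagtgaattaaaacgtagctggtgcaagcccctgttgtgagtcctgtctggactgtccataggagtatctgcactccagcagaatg
In the Prkar1a window the full element began 49 bases before the start site. In the Ppargc1a window the core CGTCA also began 49 bases before the start site. The core was found in 3 of 4 windows of Gnas, 1 of 2 of Prkaca and 1 of 4 of Pde4b, and these letters were not in the single window of Pde4d. Gem, Sik1, Crem and Pde3b are named only. A match of letters describes the sequence and does not show that CREB bound there.

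In AT2 cells the G protein and PKA genes were close between the libraries, while Gem and Ppargc1a were 2.08-fold and 1.93-fold lower in the library labelled IPKO. Gem encodes a small GTPase that inhibits voltage-gated calcium channels and is induced by several stimuli, and Ppargc1a encodes PGC-1 alpha, a transcriptional coactivator of mitochondrial biogenesis. The other members with enough UMIs to compare had log2 ratios within 0.32 of 0, the limit used for a call. Levels are in CPM, which count transcript ends and do not depend on transcript length. Intervals are 95% and cover counting error only. With 1 library per genotype there is no replicate check and no test, and genotype, library and mouse cannot be told apart.

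Gnas, which encodes the alpha subunit of the stimulatory G protein, was at 588.6 CPM in the library labelled WT and 605.1 CPM in the library labelled IPKO. The log2 ratio, IPKO over WT, was 0.04 (interval 0.03 to 0.05). Nearly every AT2 cell had a Gnas UMI (99.7% in each library), and after each cell was thinned to 3000 UMIs, to make depths equal, the shares were 81.9% and 82.3%. Gnas lies at chr2:174284320-174346744 on the plus strand in a locus that also holds the antisense genes Nespas and Gm20721, and the sources used here do not say whether counting used strand, so reads of these genes may not be told apart.

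Prkar1a, the type I alpha regulatory subunit that holds PKA inactive, was at 86.0 and 93.1 CPM (log2 ratio 0.11, interval 0.08 to 0.15). Prkaca, the catalytic subunit alpha, was at 39.2 and 44.3 CPM (log2 ratio 0.18, interval 0.12 to 0.23). Both lay a little above 0. Prkar1a was near the median of all genes, which was 0.07 on the same scale over 10913 genes with at least 1 CPM. Prkaca was above this median and just under the 75th percentile of 0.20, at number 7834 from the lowest ratio.

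The 3 phosphodiesterases differed widely in level. Pde4d was at 41.2 and 38.7 CPM in AT2 cells (log2 ratio -0.09, interval -0.15 to -0.03). Pde4b, of the same cAMP-specific family, had only 74 and 97 UMIs in all AT2 cells, or 0.608 and 0.740 CPM (log2 ratio 0.28, interval -0.17 to 0.74). Pde3b, the cGMP-inhibited family known from adipocytes and beta cells, had 67 and 109 UMIs, or 0.550 and 0.832 CPM (log2 ratio 0.60, interval 0.14 to 1.06). Neither of these low genes reached the 1 CPM needed for a call. After thinning, 0.156% and 0.269% of AT2 cells had a Pde4b UMI, against 10.9% and 10.5% for Pde4d.

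Of the CREB-induced feedback genes, Crem was at 15.2 and 14.5 CPM (log2 ratio -0.07, interval -0.17 to 0.02). Its tags do not separate the repressor ICER from longer Crem products, and Gm6225 lies across it on the opposite strand. Sik1, a kinase that keeps CREB coactivators out of the nucleus, was at 27.3 and 24.2 CPM (log2 ratio -0.18, interval -0.25 to -0.11). It lies at chr17:31844250-31855804 on the minus strand. After thinning, 8.21% and 7.40% of AT2 cells had a Sik1 UMI. Thus neither feedback gene reached a log2 ratio of 0.32 in size.

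Gem, at chr4:11704457-11714752 on the plus strand, was at 37.3 CPM in the library labelled WT (4546 UMIs) and 17.98 CPM in the library labelled IPKO (2357 UMIs). It was 2.08-fold lower in the latter (log2 ratio -1.05, interval -1.13 to -0.98). The share of AT2 cells with a Gem UMI was 39.9% and 19.3%, and 9.34% and 4.55% after thinning to equal depth. Ppargc1a, at chr5:51454250-51567726 on the minus strand, was at 10.7 CPM (1306 UMIs) and 5.55 CPM (727 UMIs). It was 1.93-fold lower in the library labelled IPKO (log2 ratio -0.95, interval -1.08 to -0.82). Its share of cells with a UMI was 15.6% and 8.21%, and 3.28% and 1.64% after thinning. The predicted genes Gm42614, Gm42615 and Gm43605 overlap Ppargc1a on its own strand, so counting could assign some of its reads elsewhere.

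**Figure D1:**
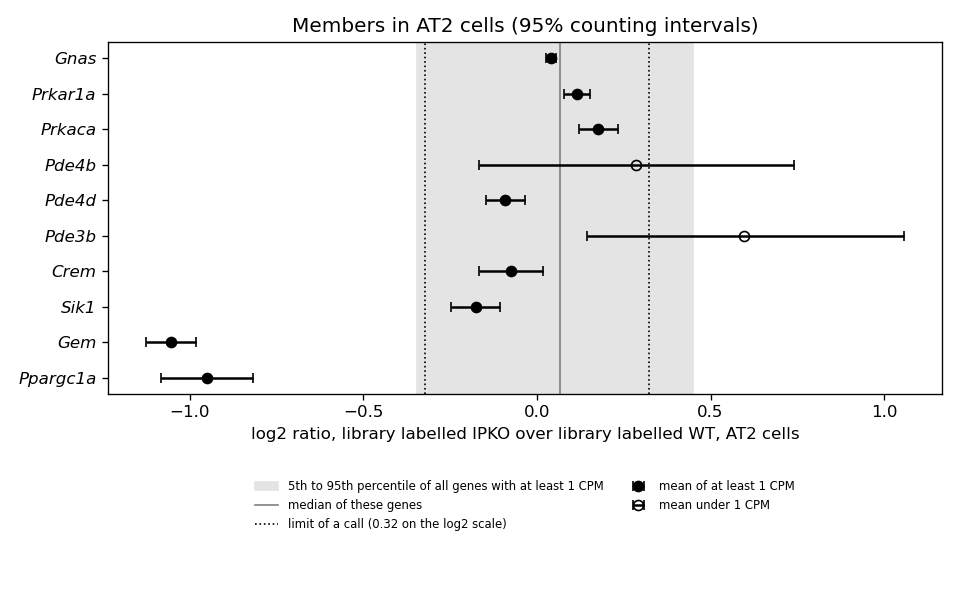
Log2 ratio of each member in AT2 cells (x axis), library labelled IPKO over library labelled WT, with 95% counting intervals; open points have a mean under 1 CPM, the grey band spans the 5th to 95th percentile of all genes with at least 1 CPM, the grey line is their median and dotted lines mark the limit of a call. Gem (-1.05) and Ppargc1a (-0.95) lie left of the band, and the other 6 members with filled points lie between the dotted lines.

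Of the 8 members with at least 1 CPM, 2 were lower past the limit of a call in the library labelled IPKO, Gem and Ppargc1a, where 5.64% of all 10913 genes were. None was higher past it, where 11% of all genes were. With a fold of 1.5 the same 2 genes were lower, against 1.92% of all genes. Ordered from the lowest ratio, Gem was number 47 and Ppargc1a number 66 of the 10913 genes. The median over the 8 members was -0.08, beside 0.07 over all genes, whose 5th and 95th percentiles were -0.35 and 0.45.

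In the library labelled WT the order of levels in AT2 cells was Gnas, Prkar1a, Pde4d, Prkaca, Gem, Sik1, Crem, Ppargc1a, Pde4b and Pde3b. The intervals of Pde4d and Prkaca overlapped, as did those of Prkaca and Gem and those of Pde4b and Pde3b. In the library labelled IPKO, Prkaca stood above Pde4d, Sik1 above Gem and Pde3b above Pde4b. There the intervals of neighbours overlapped for Pde3b and Pde4b only.

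**Figure D2:**
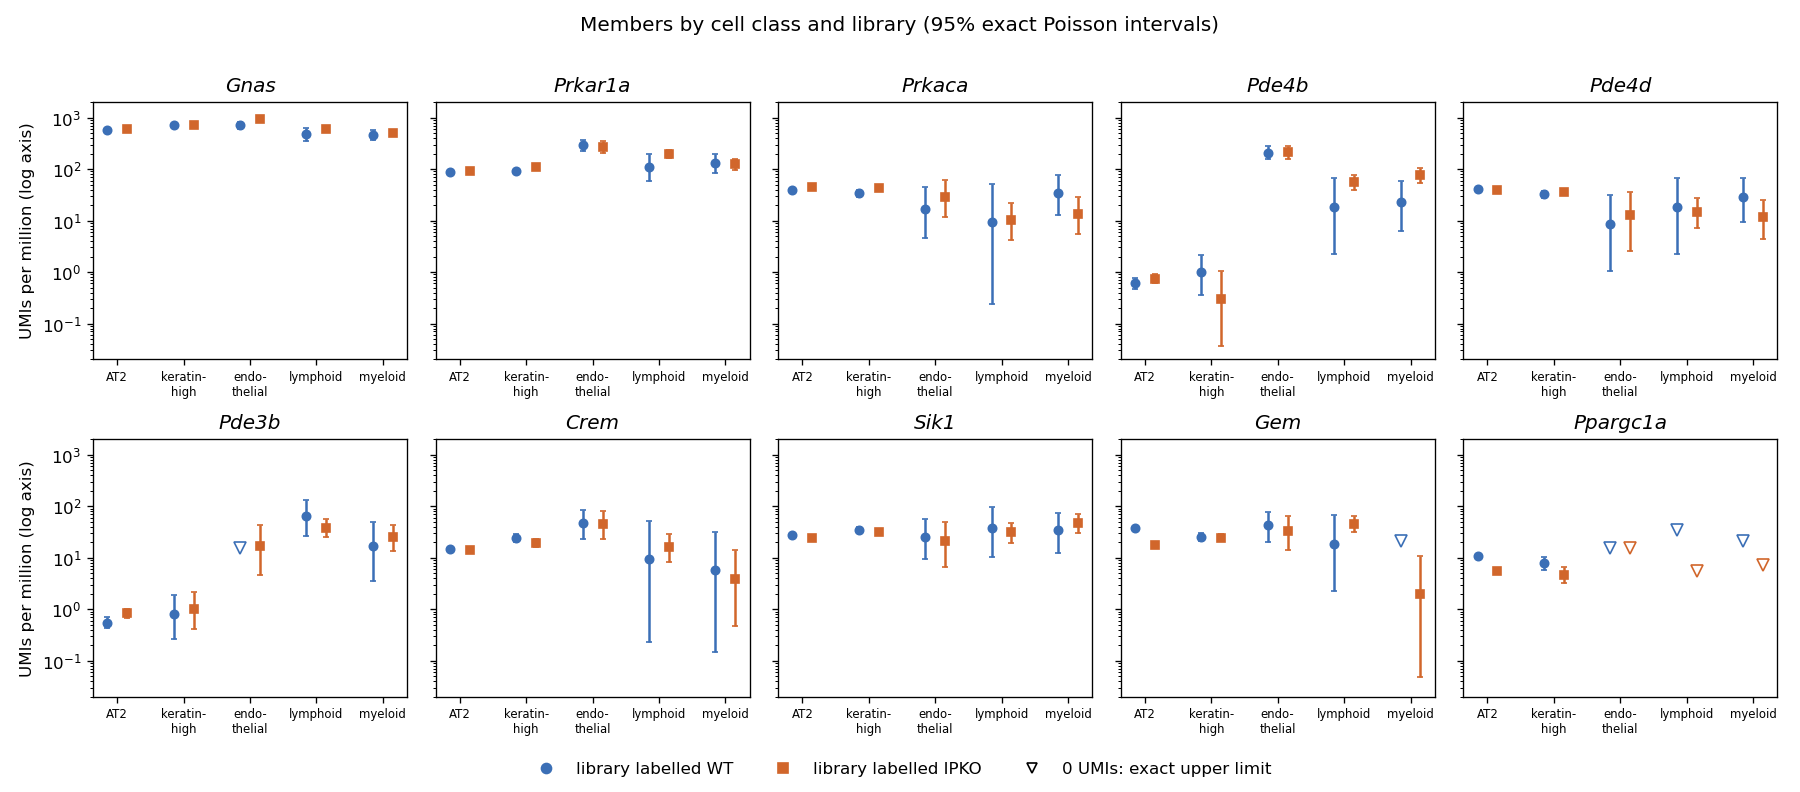
Level of each member (CPM, log axis) in 5 cell classes and both libraries, with 95% exact Poisson intervals; open triangles mark the exact upper limit where a class had 0 UMIs. Pde4b was at 210 and 214 CPM in endothelial cells and under 1 CPM in AT2 cells, and Ppargc1a had UMIs in AT2 and keratin-high cells only.

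Keratin-high cells had more Crem and Sik1 than AT2 cells in both libraries. Crem was at 24.5 and 19.4 CPM there, a log2 ratio over AT2 cells of 0.69 (interval 0.44 to 0.93) in the library labelled WT and 0.42 (0.16 to 0.68) in the library labelled IPKO. Sik1 was at 34.7 and 32.2 CPM, with log2 ratios of 0.34 (0.14 to 0.54) and 0.41 (0.21 to 0.61). These were 2 of 8 members with at least 5 CPM whose ratio was past 0.32 in both libraries, where 15.7% of 8416 genes were, and 0 members were lower, where 4.55% of genes were. With only 8 members, a count of 2 is close to this background, and Sik1 in the library labelled WT was barely past the limit. Most keratin-high cells are counted in both classes, and the early response genes described below were also higher in them, at 4114 and 6536 CPM against 3425 and 5870 CPM in AT2 cells; their part in the result was not tested.

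The keratin-high call was sensitive to how it was made. Crem and Gnas passed with the highest 2% of keratin shares. Only Crem passed with the highest 10% of keratin shares, only Sik1 with a minimum of 20 CPM, only Crem with Sftpc and mitochondrial genes left out of the total, and neither at 1.5-fold. Gnas, at 719.7 and 718.0 CPM, was above its AT2 level by 0.29 and 0.25 on the log2 scale, short of 0.32.

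Gem went opposite ways in the 2 libraries. In the library labelled WT keratin-high cells had 25.5 CPM of Gem against 37.3 in AT2 cells, a log2 ratio of -0.55 (interval -0.79 to -0.32). In the library labelled IPKO they had 24.8 CPM against 17.98, a log2 ratio of 0.46 (0.23 to 0.69). Between the libraries, keratin-high cells thus had a Gem log2 ratio of -0.04 (interval -0.37 to 0.28), and this interval excludes the ratio of -1.05 seen over all AT2 cells. Ppargc1a was lower in the library labelled IPKO in keratin-high cells too, at 8.01 and 4.74 CPM (log2 ratio -0.76, interval -1.45 to -0.08).

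Endothelial cells differed from AT2 cells most in Pde4b among the members that had UMIs in both classes. It was at 210 and 214 CPM in them, from 49 and 51 UMIs, and thus 346-fold and 289-fold above AT2 cells (log2 ratios 8.44, interval 7.88 to 8.98, and 8.17, interval 7.65 to 8.68). Pde4d was the other way round, at only 8.58 and 12.6 CPM from 2 and 3 UMIs (log2 ratios -2.26, interval -5.31 to -0.41, and -1.62, interval -3.90 to -0.07), a call that was lost when endothelial cells were defined by 3 markers. A Pde4b UMI was in 48.4% and 49.2% of endothelial cells, whose median depth was 3324.5 and 3144 UMIs. In AT2 cells, with medians of 18307 and 17061 UMIs, it was in 1.06% and 1.09%.

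Pde4b in AT2 cells was at 0.289% and 0.346% of its endothelial level. Endothelial marker genes stood in AT2 cells at a median of 0.0212% and 0.0519% of their endothelial level, and Pde4b was above 10 of the 12 markers in each library. The other 2 were Egfl7, at 0.551% and 0.554%, and Esam, at 7.98% and 10.0%. The endothelial markers also defined the class, so their percentages and that of Pde4b are not measured alike. Lymphoid and myeloid cells held Pde4b too. The AT2 level was 3.25% and 1.34% of the lymphoid level and 2.63% and 0.972% of the myeloid level. Whether the Pde4b UMIs of AT2 cells are their own expression was not tested. Free RNA was not measured, because only called barcodes were used. Conversely, Sftpc in endothelial cells was at 2.38% and 2.76% of its AT2 level.

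Prkar1a was at 292 and 272 CPM in endothelial cells, above AT2 cells by 1.76 and 1.55 on the log2 scale. Crem was at 47.2 and 46.1 CPM from 11 UMIs in each library, above AT2 cells by 1.63 and 1.67. With Pde4b these made 3 of 8 members higher by 2-fold in both libraries, against 37% of 5291 genes. Pde4d was the 1 lower, against 8.37%. A share of 3 in 8 is near this background. Members and genes were counted where the mean of the 2 classes was at least 20 CPM in each library. Pde4b (0.608 and 0.740 CPM) and Crem (15.2 and 14.5 CPM) were under 20 CPM in AT2 cells, so they passed only through endothelial cells. Pde4d passed only through AT2 cells. The endothelial cells also had high early response genes, at 18851 and 14341 CPM; their part in these differences was not tested.

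Gnas was at 717 and 951 CPM in endothelial cells, with an interval between the libraries that excludes 0 (log2 ratio 0.41, interval 0.11 to 0.70). Prkaca, with 4 and 7 UMIs, Sik1, with 6 and 5, and Gem, with 10 and 8, had intervals too wide to place them above or below AT2 cells. Ppargc1a had 0 UMIs in the 62 and 61 endothelial cells, which allows up to 15.8 and 15.5 CPM (exact upper limits), above its level in AT2 cells. At this depth its absence there cannot be shown.

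The few leukocytes that passed the gate give a second view of the phosphodiesterases. In 17 and 112 lymphoid cells Pde3b was at 65.5 CPM (7 UMIs) and 38.9 CPM (26 UMIs), the highest value among the classes in each library. Its intervals overlapped those of myeloid cells in both libraries, where it was at 17.3 CPM (3 UMIs) and 25.4 CPM (13 UMIs). The AT2 level of Pde3b was 0.840% and 2.14% of its lymphoid level. Lymphoid markers, which also defined that class, stood in AT2 cells at medians of 0.0222% and 0.0767% of their lymphoid level. Pde3b was above 10 of the 11 in each library, all but Cd79b, at 5.07% and 5.24%. Whether the Pde3b UMIs of AT2 cells are their own expression was not tested. Pde4b was at 18.7 CPM (2 UMIs) and 55.4 CPM (37 UMIs) in lymphoid cells, and the interval of this log2 ratio includes 0 (1.57, interval -0.39 to 4.66). In 18 and 57 myeloid cells it was at 23.1 CPM (4 UMIs) and 76.2 CPM (39 UMIs), higher in the library labelled IPKO (log2 ratio 1.72, interval 0.25 to 3.67). The myeloid cells of the libraries also differed in markers, such as C1qa (0 and 455 CPM) and S100a9 (9165 and 3486 CPM). The part of this mixture of cells in the Pde4b difference was not tested. Ppargc1a had 0 UMIs in both leukocyte classes of both libraries, and the 112 lymphoid cells of the library labelled IPKO allow up to 5.52 CPM.

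AT2 cells differed in their load of early response genes, 18 genes such as Fos, Jun and Egr1 that respond to stimulation and to tissue dissociation, none of them a member. Their summed level in AT2 cells was 3425 CPM in the library labelled WT and 5870 CPM in the library labelled IPKO. AT2 cells of each library were ordered by this load and divided into 5 groups of equal size. Sik1, Gem and Pde4d were higher at each of the 4 steps in both libraries.

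Sik1 went from 21.5 CPM in the lowest group to 37.9 CPM in the highest in the library labelled WT, 1.76-fold (interval 1.58 to 1.96). In the library labelled IPKO it went from 18.4 to 29.0 CPM, 1.57-fold (1.40 to 1.77). Gem went from 28.9 to 49.6 CPM, 1.72-fold (1.56 to 1.89), and from 9.28 to 22.8 CPM, 2.46-fold (2.11 to 2.87). Pde4d went from 35.4 to 48.9 CPM, 1.38-fold (1.26 to 1.51), and from 30.3 to 47.4 CPM, 1.56-fold (1.43 to 1.71). Prkar1a was 1.17-fold higher in the highest group of each library.

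Crem showed no clear difference along this order. It was at 14.5 and 16.5 CPM in the lowest and highest groups of the library labelled WT, 1.14-fold (interval 0.982 to 1.32). In the library labelled IPKO it was at 13.8 and 14.8 CPM, 1.07-fold (0.923 to 1.24). These intervals include 1 and also a rise of the size seen for Prkar1a. Gnas was 1.04-fold higher in the highest groups. Ppargc1a was 1.23-fold higher (interval 1.04 to 1.46) in the library labelled WT and 1.12-fold (0.886 to 1.41) in the library labelled IPKO. Median depth went the other way from the load, from 19396 UMIs in the lowest group to 16937 in the highest in the library labelled WT and from 17541 to 16023 in the library labelled IPKO.

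**Figure D3:**
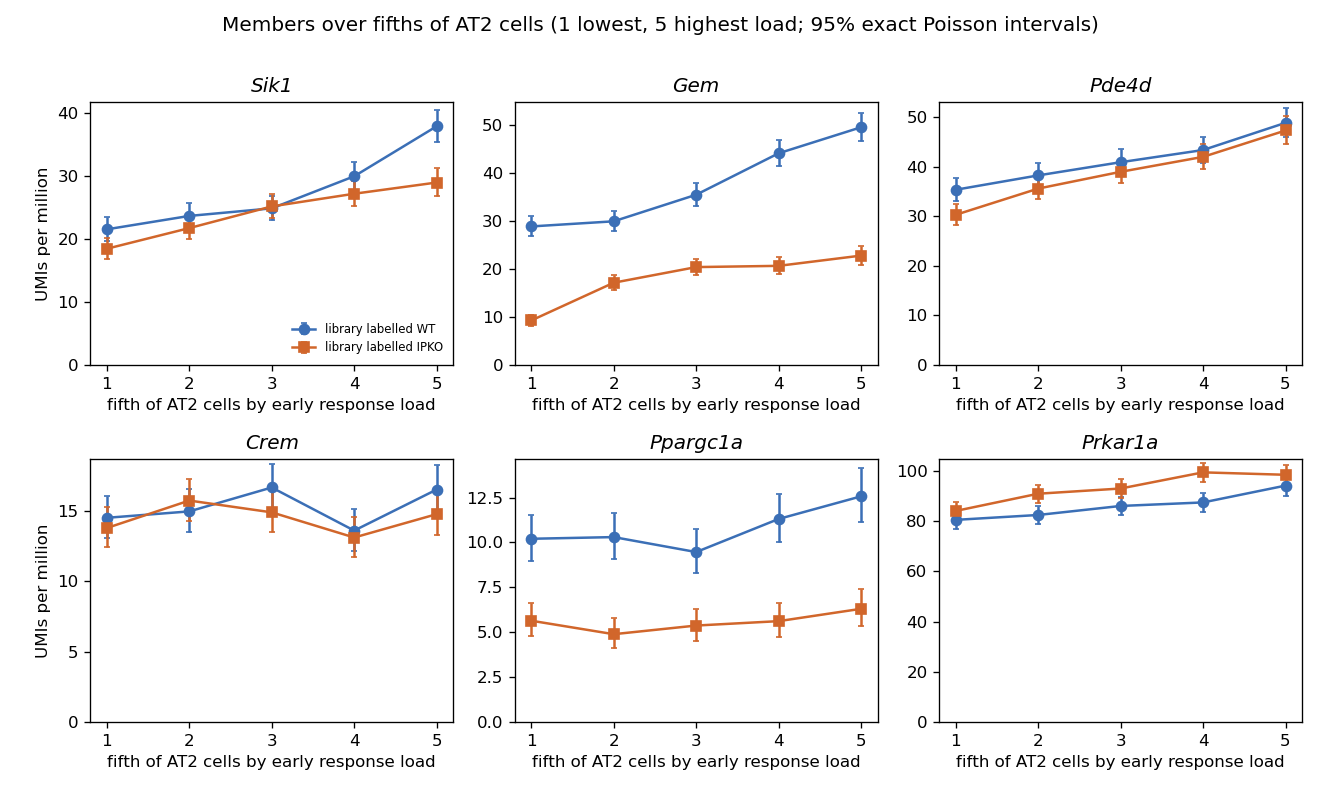
Level of 6 members (CPM, y axis from 0) in 5 equal groups of AT2 cells ordered by early response load (x axis, 1 lowest and 5 highest), with 95% exact Poisson intervals. Sik1, Gem and Pde4d are higher at each step in both libraries, and the library labelled IPKO lies below the library labelled WT in every group for Gem and Ppargc1a.

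The lower Gem and Ppargc1a of the library labelled IPKO were present in each of these groups. These groups and those below were cut within each library, so groups of the same rank are not matched between libraries. Under the median load of both libraries together lay 4439 AT2 cells of the library labelled WT and 2504 of the library labelled IPKO. The part of load in the difference was not tested. From group to group the log2 ratio of Gem lay between -1.64 and -0.80, and that of Ppargc1a between -1.07 and -0.82. Sik1 ranged from -0.39 to 0.02. When cells were ordered by their number of UMIs instead, Gem lay between -1.14 and -0.90 and Ppargc1a between -1.19 and -0.71. When ordered by mitochondrial share, of which the AT2 medians were 5.24% and 3.91%, they lay between -1.22 and -0.88 and between -1.14 and -0.87.

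Gem also had the largest variance among the members relative to a Poisson draw over AT2 cells. Among cells of 10000 to 30000 UMIs its variance was 1.96 and 2.38 times that of a Poisson draw at each cell's depth. A UMI was seen in 39.7% of the cells in the library labelled WT, where the Poisson draw gives 49.7%, and in 19.1% of those in the library labelled IPKO, where it gives 26.6%. Cells with 3 or more UMIs made up 6.91% and 2.72%, against 3.62% and 0.443%. Thus fewer cells held Gem, and more of it each, than at an even level. For Ppargc1a the variance was 1.37 and 1.26 times Poisson, for Pde4d 1.27 and 1.22, and for Sik1 1.22 and 1.24. Prkaca had the lowest ratio, at 1.05 and 1.03. This ratio also depends on the mean number of UMIs per cell. In the library labelled WT that mean went from 0.0106 for Pde3b to 10.9 for Gnas. Members of unlike level thus cannot be ranked in evenness by it.

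The other genes of the cAMP pathway were taken from a list of 102, of which 63 had at least 1 CPM in AT2 cells. In the library labelled IPKO 16, Ptgir among them, were higher past the limit of 0.32 (25.4%, against the 11% of all genes). Another 3 were lower (4.76%, against 5.64%) and 44 were neither. The median log2 ratio over the 63 was 0.05, beside 0.07 over all genes. Most of the higher ones were in 1 group, the CREB target genes. Of 13 in it, 9 were higher and 1 was lower, with a median of 0.62. The list was written with earlier results of these data known, so these shares describe the list and do not test the pathway. The members Crem, Sik1, Gem and Ppargc1a are not in this group. Of them Gem and Ppargc1a were lower and none was higher.

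Among the CREB target genes, Nr4a1, a nuclear receptor induced by many stimuli, went from 24.4 to 51.4 CPM (log2 ratio 1.07). The clock genes went apart: Per2 was higher (1.13) and Per1 lower (-0.83, from 23.8 to 13.4 CPM). Irs2, an insulin receptor substrate, was at -0.28, short of the limit. Gem and Ppargc1a, lower in the same cells, were thus on the side of Per1. The early response list, which shares no gene with this group, was also higher in the library labelled IPKO, at 5870 against 3425 CPM; its part in the group's level was not tested.

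Of the receptors, 3 of 6 were higher, Ptgir among them. Ptgir, at 0 and 2.40 CPM, passed the minimum of 1 CPM only through the library labelled IPKO, so its call adds no support. Adrb1, the beta-1 adrenoceptor, was at 4.11 and 8.13 CPM (0.98). The receptors with the lowest ratios were Adora2b, an adenosine receptor (-0.14), and the adhesion receptor Adgrf5 (-0.23). None of 9 G protein genes and 3 adenylyl cyclases passed the limit in either direction. They ranged from Gnaz (-0.20) to Gng5 (0.17) and from Adcy9 (-0.12) to Adcy7 (0.19). Of 8 other genes listed under phosphodiesterases, only Pde4c was past it (-0.76, from 3.11 to 1.84 CPM), and their median was -0.22. Pde4dip, among the 8, was at 0.10 and encodes a protein that binds a phosphodiesterase and is not one itself.

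Of 11 genes of PKA subunits, inhibitors and anchors, the anchoring proteins Akap5 (1.06, from 4.29 to 8.95 CPM) and Akap8 (0.35) were higher, and Akap13 (-0.20) and Akap9 (-0.14) had the lowest ratios. In the Epac branch, which carries cAMP signals without PKA, Rap1a was higher (0.33) and Rapgef3, the gene of Epac1, lower (-0.75, from 3.57 to 2.12 CPM). None of 7 genes of the CREB family and its coactivators passed the limit, from Crebbp (-0.19) to Crtc1 (0.22). Of the SIK group, Sik2 was higher (0.54, from 4.19 to 6.10 CPM) and Sik3 was at -0.23, next to the member Sik1 at -0.18.

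**Figure D4:**
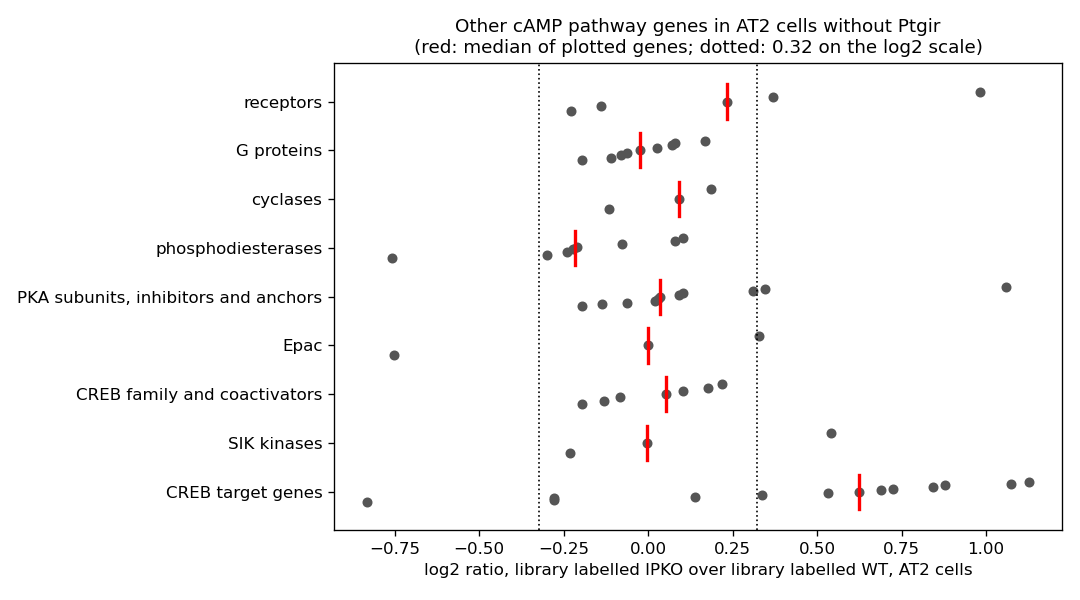
Log2 ratio in AT2 cells (x axis), library labelled IPKO over library labelled WT, of the other cAMP pathway genes with at least 1 CPM, by role; each point is a gene, red bars are medians of the plotted genes, dotted lines mark the limit of a call, and Ptgir, with 0 UMIs in 1 library, is not drawn. CREB target genes lie mostly to the right, with Per1 (-0.83) as the leftmost, while G proteins, cyclases and the CREB family stay between the dotted lines.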

How the data were processed

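The authors deposited unnormalized UMI counts, a row per gene and a column per barcode, from Cell Ranger 4.0.0 on GRCm38 (mm10), per the submitters' processing notes and the file headers. Annotation release and strand setting are not stated. Barcodes with under 500 genes or over 20% mitochondrial UMIs were left out, and doublets were not called. AT2 cells had Sftpc at 10% or more of UMIs. Keratin-high cells were the highest 5% by the summed share of 4 keratins (at least 0.0896% of UMIs) among cells with 3000 or more UMIs, and 139 and 196 cells lay within 10% of this limit. Endothelial and myeloid cells needed 4 of their 12 markers, and lymphoid cells 3 of 11. Between 8% and 12% Sftpc lay 142 and 201 cells, and 201 and 337 kept cells were in no class. Each genotype label has 1 library, so no test between genotypes was possible.

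Counts were summed per class and library and given as CPM. Levels have exact Poisson intervals, ratios exact conditional binomial intervals and shares Clopper-Pearson intervals, all at 95% and for counting error only. A ratio was called past 0.32 on the log2 scale (endothelial cells 2-fold) with a mean of at least 1 CPM (keratin-high 5, endothelial 20). Scripts used Python 3.11.15, numpy 2.4.6, scipy 1.17.1 and pandas 2.3.3, and the ratios were tested on simulated data. Gene positions are from the GENCODE annotation of GRCm38, and the promoter sequences from RefSeq. The members and lists were chosen with earlier results of these data known. Named are all 10 members, Ptgir, and in each pathway group the 2 highest and 2 lowest ratios at 1 CPM or more; for likeness, the 2 genes with the highest Pearson correlation to each member. Alternatives covered scaling, class limits, gene minimums, folds and depth.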

Additional observations from a re-analysis of the deposited data

Results flagged for a closer look

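Gem differed between keratin-high and AT2 cells in opposite directions in the 2 libraries: the log2 ratio of keratin-high over AT2 cells was -0.55 in the library labelled WT and 0.46 in the library labelled IPKO. Each value comes from 1 library, and the difference between them was not tested.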

How the results depend on the processing

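Gem and Ppargc1a were lower past the limit of a call in AT2 cells of the library labelled IPKO under every alternative run. Over 13 alternatives that recompute the AT2 ratios, Gem ranged from -1.41 to -1.04 and Ppargc1a from -1.02 to -0.94. Weighting bins of early response load equally in both libraries, 1 of 2 alternatives chosen after seeing the data, also made Sik1 lower (-0.43) and moved the median of the pathway list from 0.05 to -0.038; the cause was not tested. Without a gene minimum 1 member was higher, Pde3b. The sign of Gnas turned, with a range of -0.02 to 0.05. Median-of-ratios scaling lowered all ratios by 0.06. The count of members higher in keratin-high cells was 1 with the highest 10%, 0 at 1.5-fold, 1 at 20 CPM and 1 without Sftpc and mitochondrial genes. The count lower in endothelial cells was 0 with 3 markers and 2 at 1.5-fold. No paired analysis was possible because each genotype has 1 library, and none could be left out. The number of UMIs limits Pde4b and Pde3b in AT2 cells and most members in endothelial cells.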

Other observations

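The likeness of other genes to each member was described by Pearson's r of log2(CPM + 5) over 10 values, 5 classes in 2 libraries, among the 5853 genes that averaged 20 CPM or more; AT2 and keratin-high values share cells, and values of a library share that library. Pde4b was most like Slfn5 and Dnajc8 (both r = 0.98), and Pde3b most like Dusp2 (0.98) and Atp5g2 (0.97). Pde4d was most like Acaca (0.96) and mt-Co1 (0.95), and Ppargc1a most like Prr15l and Errfi1 (both 0.97). Crem was most like Grasp (0.96) and Glo1 (0.95), Sik1 most like Efhd2 (0.94) and Rnf19b (0.90), and Gem most like Eif4a2 (0.96) and Msi2 (0.94). For Gnas these were Otud7b and Ckap4 (both 0.94), for Prkar1a Srsf11 (0.98) and Fam43a (0.97), and for Prkaca Atl3 (0.97) and Scamp1 (0.96).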
